A study of Mus musculus with 4 samples.

Results

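Retinoid metabolism and the retinoic acid receptors were examined in mouse liver through 10 genes. They comprise the receptors Rara, Rarb and Rarg, the retinal dehydrogenases Aldh1a1 and Aldh1a2, the retinol dehydrogenase Rdh10, the retinal reductase Dhrs3, the storage enzyme Lrat, the retinoic acid hydroxylase Cyp26a1 and the uptake receptor Stra6. All non-control probes carrying these gene names were taken, 13 of 55681 probes and 10 of 36161 gene names on the array. Rara was represented by 2 probes, Rarb by 3, and each of the other 8 genes by 1. The RXR, PPAR, RBP and CRABP families are not included.

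The study compared microsomic with control animals within each gender, and 1 array was at hand for each of the 4 groups. CF and CM stand for control females and males, MF and MM for their microsomic counterparts. Microsomic mice are inbred animals with a low weight at birth for their gender, and the controls are littermates of normal weight, so no engineered allele or treatment separates the groups. The labels give whole liver of C57BL/6J fetuses at embryonic day 20, whereas the paper describes newborn C57BL/6 N mice and replicate experiments in each group. The sources used here do not say if RNA was pooled across animals. There are no replicate arrays here, so differences between a pair of arrays carry no error from replicates and no p-value.

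Retinol reaches cells bound to a carrier protein, and STRA6 takes it up in many tissues outside the liver. LRAT turns retinol into esters, the storage form held mainly by hepatic stellate cells. Retinol is oxidized to retinal by RDH10 and other dehydrogenases, a step that DHRS3 reverses. The ALDH1A enzymes oxidize retinal to retinoic acid, which binds the receptors RARA, RARB and RARG on DNA, and CYP26A1 breaks it down. Rarb, Cyp26a1, Dhrs3, Lrat and Stra6 are known to respond to retinoic acid themselves, so the list holds both producers and targets of the same signal.

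The probes are 60 bases long, and their letters are shown because each gene is read only where its probe lies. The letters AATAAA, the usual polyadenylation signal near the 3′ end of a transcript, occurred in 6 of the 13 probes and in 10.1% of all 55681 probes on the array. For the genes with several probes, a stretch of 30 bases of each is given 5′ to 3′, with AATAAA in capitals where it is present.
Rara A_55_P2095342: cctgtacatatcctgcgtaccaatccccag
Rara A_55_P2095345: tactggagaaagAATAAAgttctatttatt
Rarb A_55_P1962154: ttccatggagtctcctggcaaagAATAAAt
Rarb A_55_P2084807: aattctgaaggacatgaacccttgacccca
Rarb A_55_P2099585: tattgagcctgtttgcacacactcaccacc
The starts of the Rara probes lie 847 bases apart on chromosome 11 (mm9). The first Rarb probe lies 1281 bases from the second and 388057 bases from the third on chromosome 14 (mm9), and the third was designed on a different transcript record from the other two. Rarg, Dhrs3, Lrat and Stra6 were the single-probe genes that differed by more than 1.5-fold between microsomic and control females. AATAAA was absent from the probes of Aldh1a1, which passed 1.5-fold in males, and of Aldh1a2, Rdh10 and Cyp26a1. It was also absent from the second Rarb probe, which was over 1.5-fold lower on MF than on CF. The third Rarb probe, at least 1.596-fold higher on MF, lacked it too. The second Rara probe and the first Rarb probe held AATAAA but did not pass 1.5-fold in females (1.22-fold and 1.46-fold). The share of AATAAA among the probes of all genes over 1.5-fold apart was not counted. The probes of Rarg, Dhrs3, Lrat and Stra6 each held AATAAA, as shown here.
Rarg A_55_P2151056: ctatttttgcaaAATAAAgtgatggaaact
Dhrs3 A_55_P2020128: gcagaaacgcaaAATAAAgaggtggctttc
Lrat A_52_P669005: tgattactgcaaAATAAAttaactttacaa
Stra6 A_55_P1973451: tgtgctctctgtAATAAAtgtgcctctgag

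Levels are given as the processed signal, and for comparison as log2 of that signal minus the 75th percentile of the array, which was 676 on CF, 893 on MF, 628 on CM and 925 on MM. Well above background (the flag of the scanner software) were 56.1% to 65.3% of 59305 non-control spots. Among the members, 10 of 13 probes and 8 of 10 genes reached this on each of the 4 arrays. A gene stood for its probe with the highest mean, and was counted as different when the arrays were over 1.5-fold apart and at least 1 was well above background. For a sense of scale, the difference between 2 arrays read from single spots of the same probe had an SD of 0.36 (log2) for MF minus CF and 0.40 for MM minus CM over 280 probes printed at 5 spots or more. For probes with a mean between log2 0 and -3, the range of Aldh1a1, Rdh10, Lrat, Rarg and Aldh1a2, it was 0.39 and 0.46. Below -3, the range of Stra6, it was 0.55 and 0.42 over 10 probes. This scatter covers the spots of an array and not the animals.

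Between microsomic and control females, 3 members were higher in MF (Rarg, Dhrs3 and Lrat) and 1 was lower (Stra6) of 9 compared, which is 44.4%. Among all genes 40.9% of 25538 passed the same threshold, so the share of the members was near the background. Between the males, 1 of 10 members was higher in MM (Aldh1a1) and 0 were lower, 10% against 40.8% of 26315 genes. The median difference of the members was -0.10 in females and 0.03 in males (log2), beside -0.06 and -0.01 over all genes. The male median was the lower bound of Cyp26a1. It was log2 0.02 with only members well above background on both arrays. No member passed 1.5-fold the same way in both genders (0 genes), where 3.19% of 23967 genes were higher and 3.8% lower in both.

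**Figure D1:**
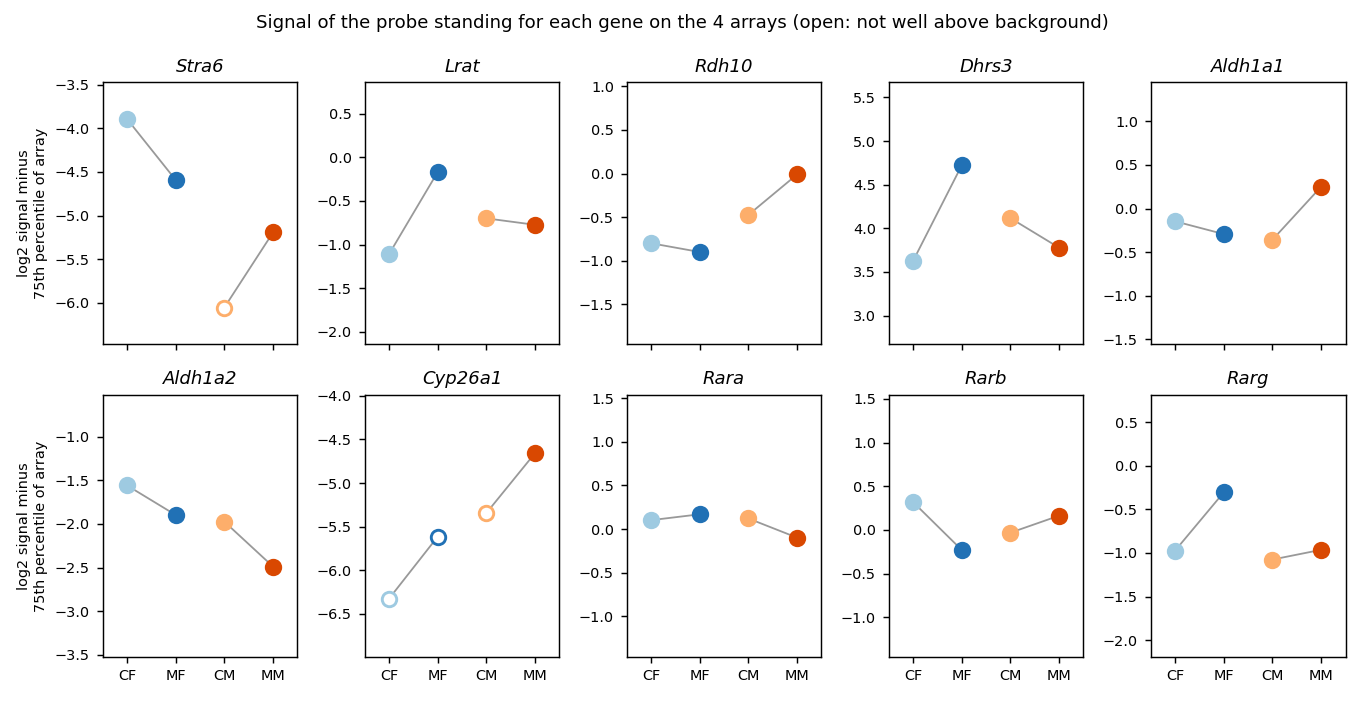
Log2 signal minus the 75th percentile of the array for the probe standing for each of the 10 genes, on the CF, MF, CM and MM arrays (1 array each; lines join control to microsomic of the same gender; open circles are not well above background). Each panel has its own range on the vertical axis. Dhrs3 and Lrat were higher on MF than on CF and slightly lower on MM than on CM.

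Stra6, the receptor for retinol uptake, gave a dim signal on every array (chromosome 9, 58001701 to 58001760, mm9). Its signal was 45.6 on CF, 37.1 on MF, 9.44 on CM and 25.3 on MM, and CM was not well above background. It was 1.62-fold lower on MF than on CF (log2 -0.70). The difference was under 1.5-fold with normexp and quantile normalization (log2 -0.32) and without scaling (log2 -0.30). In males no fold is given, because the limit of detection on CM lay above the signal on MM.

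Lrat, the enzyme that esterifies retinol for storage, had a signal of 313 on CF, 794 on MF, 386 on CM and 541 on MM (chromosome 3, 82696805 to 82696864, mm9). MF was the highest of the 4 arrays and both controls were the lowest before scaling. After scaling it was 1.92-fold higher on MF than on CF (log2 0.94), while MM and CM differed by log2 -0.07. The stellate cells that hold most of the esters were followed by 12 markers, which were well above background on every array, with a summed signal, over the 75th percentile, of 53.3 on MF, 43.6 on CF, 63.0 on MM and 69.1 on CM. Of these markers 1 was over 1.5-fold higher and 2 were lower on MF than on CF (median log2 -0.25), and 1 was higher and 3 were lower on MM than on CM (median log2 -0.24). In bulk RNA, fewer cells of a type and less RNA per cell cannot be told apart.

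Rdh10, which oxidizes retinol to retinal, had a signal of 389 on CF, 479 on MF, 452 on CM and 919 on MM (chromosome 1, 16122062 to 16122121, mm9). MM stood above the other arrays. The difference was log2 -0.10 in females and 0.46 in males, neither over 1.5-fold.

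Dhrs3, the reductase that returns retinal to retinol, had a signal of 8340 on CF, 23551 on MF, 10890 on CM and 12689 on MM (chromosome 4, 144517485 to 144517544, mm9). MF was the highest array. Dhrs3 was 2.14-fold higher on MF than on CF (log2 1.10), the widest difference between microsomic and control arrays among the probes standing for the members. In males it was log2 -0.34. With normexp background correction and quantile normalization the female difference was log2 0.50, under 1.5-fold.

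Aldh1a1, a retinal dehydrogenase, had a signal of 611 on CF, 729 on MF, 490 on CM and 1100 on MM (chromosome 19, 20717764 to 20717823, mm9). It was 1.52-fold higher on MM than on CM (log2 0.61), just past the threshold, and differed by log2 -0.15 in females. With normexp and quantile normalization the male difference was log2 0.40, under 1.5-fold. Aldh1a2, the main retinal dehydrogenase of the early embryo, had a signal of 230 on CF, 240 on MF, 160 on CM and 165 on MM (chromosome 9, 71143931 to 71143990, mm9). Females were above males in both conditions, and the difference of microsomic from control was log2 -0.34 in females and -0.52 in males.

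Cyp26a1, which hydroxylates retinoic acid, was well above background on MM alone. Its signal was 8.42 on CF, 18.2 on MF, 15.4 on CM and 36.6 on MM (chromosome 19, 37775566 to 37775625, mm9). In females neither array measured it, and in males the level on MM was at least 1.02-fold that on CM.

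**Figure D2:**
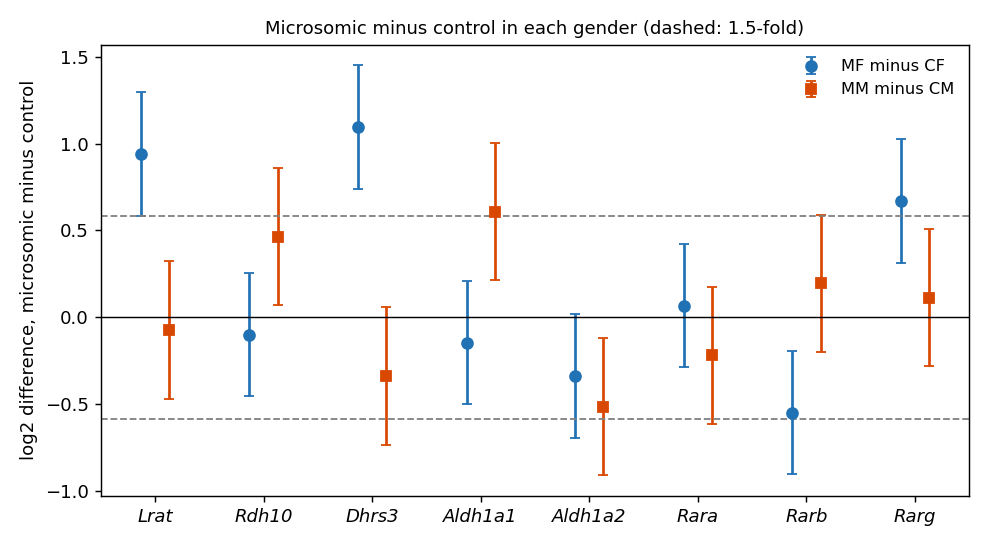
Log2 difference of microsomic minus control for the 8 genes that every array measured well above background, in females (circles) and males (squares). Bars show 1 SD of a single-spot difference between the same arrays over probes of all brightness (0.36 and 0.40), which is not an error between animals. The SD is larger for dimmer probes. Dashed lines mark 1.5-fold.

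Of the 8 genes measured on all arrays, 6 (75%) had differences of opposite sign in females and males. Of these, only Rarb kept opposite signs without scaling. The signs of Rara and Rarb also depended on the probe. On the second brightest probe Rara was higher in both genders (log2 0.29 in females and 1.18 in males). Rarb was lower in both on its second brightest probe (log2 -0.97 and -0.18). Among 23967 genes compared in both genders 50.6% had opposite signs. That wider set includes bounds, and its genes without a fold cannot count as opposite, so the shares are not of like sets. Rarg was higher on the microsomic array in both genders, as were 20.9% of those 23967 genes, and Aldh1a2 was lower in both. limma was fitted to the 4 arrays with condition and gender as terms, which leaves 1 residual degree of freedom. It called 0 of 19303 genes at an adjusted p under 0.05 (smallest adjusted p 0.964), and the unadjusted p was under 0.05 for 853. None of the 8 members (0 genes) had an unadjusted p under 0.05. In this limma fit Aldh1a2 had the smallest p of the members, 0.333, at log2 -0.43 with an SE of 0.41 and an adjusted p of 0.995, and it was lower in 2 of 2 genders.

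Among the receptors, Rarg differed by more than 1.5-fold in females. Its signal was 344 on CF, 722 on MF, 298 on CM and 474 on MM (chromosome 15, 102065371 to 102065430, mm9). Rarg was 1.59-fold higher on MF than on CF (log2 0.67) and differed by log2 0.11 in males, and after scaling MM and CF were almost level at log2 -0.96 and -0.97.

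Rara, the receptor found in most tissues, depended on the probe. The probe A_55_P2095342, with the higher mean, had a signal of 726 on CF, 1004 on MF, 683 on CM and 864 on MM (98835350 to 98835409), which after scaling gave log2 0.07 in females and -0.22 in males. The probe A_55_P2095345 had a signal of 839 on CF, 1358 on MF, 277 on CM and 929 on MM (98836197 to 98836256). After scaling, CM stood below the other arrays on this probe (log2 -1.18) and not on the first (log2 0.12). Its difference was log2 0.29 in females and 1.18 in males, 2.27-fold higher on MM than on CM, in the opposite direction to the first probe.

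Rarb, a receptor whose gene is a classical target of retinoic acid, also differed between probes. The probe A_55_P1962154 had a signal of 844 on CF, 761 on MF, 614 on CM and 1035 on MM (17263367 to 17263426). It gave log2 -0.55 in females, just under 1.5-fold, and 0.20 in males. The probe A_55_P2084807 had a signal of 135 on CF, 90.9 on MF, 200 on CM and 261 on MM (17264648 to 17264707), and was 1.96-fold lower on MF than on CF (log2 -0.97) with a difference of -0.18 in males. Both probes were thus lower on MF than on CF. The third probe, A_55_P2099585, had a signal of 14.2 on CF, 32.0 on MF, 65.4 on CM and 10.6 on MM (17651424 to 17651483) and was well above background on MF and CM only. Against the limits of the other arrays it was at least 1.596-fold higher on MF than on CF and at least 5.91-fold lower on MM than on CM.

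**Figure D3:**
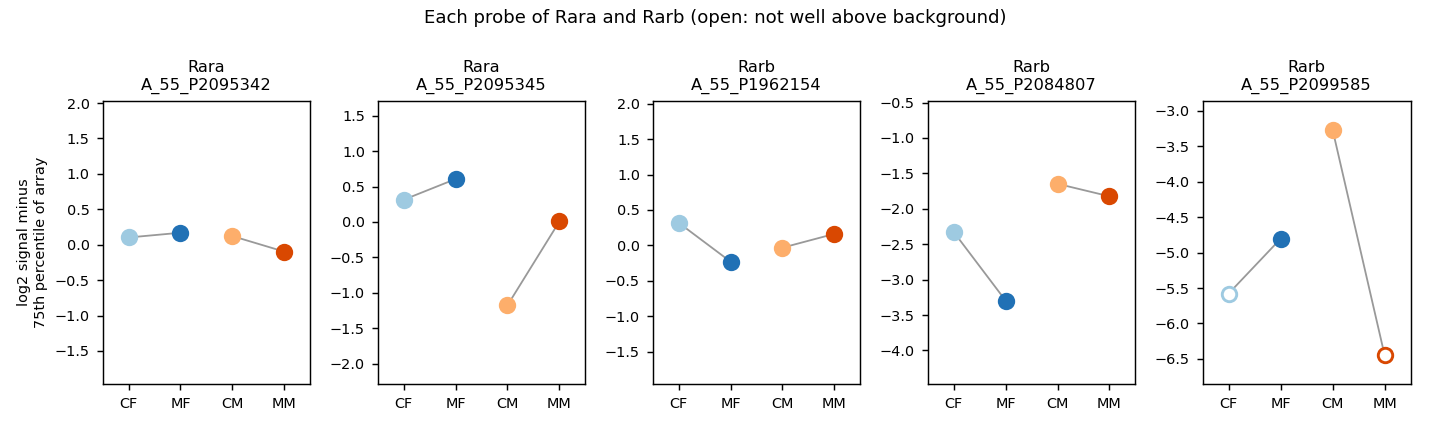
Log2 signal minus the 75th percentile of the array for each probe of Rara (2 probes) and Rarb (3 probes) on the CF, MF, CM and MM arrays, 1 array each (open circles are not well above background). The Rara probes part on CM, and the third Rarb probe is highest on CM.

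Between the genders, 1 member was lower on CM than on CF (Stra6, at least 1.74-fold) and 0 were higher of 9, which is 11.1% beside 46.3% of 25204 genes (26.6% higher and 19.7% lower on CM). Between MM and MF, 7 of 10 members (70%) passed 1.5-fold beside 49.5% of 26735 genes (28.9% higher and 20.5% lower on MM). Rdh10 (1.85-fold) and Cyp26a1 (at least 1.94-fold) were higher on MM. Rarg, Aldh1a2, Dhrs3, Lrat and Stra6 were lower on MM, by 1.51-fold to 1.92-fold. These comparisons share their arrays with those of microsomic against control, and the genders lay in different rows of the slide.

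The promoters were searched for the direct repeat that receptor pairs of RAR and RXR are known to bind. The window ran from 250 bases before to 50 after the start in RefSeq (GRCm38.p6), and 9 of the 10 members had an entry. Each 6-letter element of the repeat was AGTTCA, the same with G as its first letter (GGTTCA), or the form with a G before the T (AGGTCA), with 5 bases between the elements, on both strands. The motif was found in 20 of 32851 promoters (0.0609%), among them those of Rarb and Cyp26a1. They are shown with the repeat in capitals, Rarb at chr14:16575501-16575541 on the minus strand and Cyp26a1 at chr19:37697764-37697804 on the plus strand, where the repeat reads on the opposite strand.
Rarb promoter: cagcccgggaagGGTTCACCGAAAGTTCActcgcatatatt
Cyp26a1 promoter: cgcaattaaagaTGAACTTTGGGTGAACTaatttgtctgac
The repeat lies 53 to 37 bases before the start of Rarb and 32 to 16 bases before that of Cyp26a1. Of the 20 genes with the motif, 6 were on the array. In females 2 of 4 compared were over 1.5-fold higher on MF, Blvrb (1.59-fold) and Ppbp (1.55-fold), both just past the threshold. Among all genes 19.9% were. In males 0 of 5 compared passed 1.5-fold, beside 40.8% of all genes. So few genes do not show if the motif set differs from the background. A match describes the letters in this window and does not show binding.

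The other genes of the pathway were counted in 6 lists with 72 names, of which 68 were on the array. In females 15 were over 1.5-fold higher and 14 lower of 63 compared, and in males 20 were higher and 11 lower of 64 compared. The backgrounds were 19.9% higher and 21.1% lower in females, and 17.7% higher and 23.1% lower in males.

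Retinol and retinal dehydrogenases and reductases beyond Rdh10 and Dhrs3 lay on both sides. On MF 4 were higher and 7 lower than on CF of 16, with a median of log2 -0.10, and on MM 6 were higher and 4 lower than on CM of 17, with a median of 0.22. Rdh12, a retinal reductase, was 7.22-fold higher on MF than on CF and 2.57-fold lower on MM than on CM. Adh1, an alcohol dehydrogenase that clears retinol in liver, was 3.56-fold higher on MF, and Rdh11 was 2.38-fold higher. Adh4 was 2.82-fold lower on MF and 2.18-fold higher on MM. Rdh13 was lower on the microsomic array in both genders, 3.004-fold in females and 1.95-fold in males. Rdh9 was 2.75-fold lower on MF. In males Adh5 was 2.45-fold and Dhrs4 1.96-fold higher on MM, and Rdh16 was 3.74-fold lower.

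Among the 5 retinal dehydrogenases and oxidases beyond the members, 0 were higher and 2 lower on MF than on CF (median log2 -0.36), and 1 was higher and 1 lower on MM than on CM (median log2 -0.02). Aldh1a3 was lower on the microsomic array in both genders, 1.58-fold in females and 1.66-fold in males. Aldh8a1, which oxidizes the 9-cis form of retinal, was 1.61-fold lower on MF, and Aldh1a7 was 1.87-fold higher on MM.

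Of the retinoic acid hydroxylases beyond Cyp26a1, 2 of 2 compared were over 1.5-fold higher on the microsomic array in each gender. Among all genes 3.19% of 23967 were higher in both. Cyp2c39 had a signal of 6082 on MF, 575 on CF, 5369 on MM and 792 on CM. It was 8.01-fold higher on MF than on CF and 4.60-fold higher on MM than on CM. Cyp26b1 had a signal of 184 on MF, 50.6 on CF, 129 on MM and 51.9 on CM, and CM was not well above background. It was 2.75-fold higher in females and at least 1.68-fold higher in males. The third, Cyp26c1, was not well above background on any of the 4 arrays.

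Genes of provitamin A cleavage, ester hydrolysis, uptake and transport were 2 higher and 3 lower of 12 in females (median log2 -0.30) and 2 higher and 2 lower of 12 in males (median log2 -0.09). Scarb1, a lipoprotein receptor that also takes up carotenoids, was 3.33-fold higher on MF and 1.95-fold lower on MM. Bcmo1, which cleaves beta-carotene to retinal, was 1.53-fold lower on MF and 1.82-fold higher on MM. Bco2, which cleaves carotenoids off-centre, was 1.64-fold higher on MF, and the lipases Ces1g and Lpl were 2.62-fold and 1.55-fold lower. In males Ces1d was 1.68-fold higher, and Ttr, which carries the complex of retinol and its binding protein in plasma, was 1.53-fold lower.

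Of 16 known retinoic acid targets compared in females, 5 were higher and 1 lower on MF (median log2 0.38). Among them were Cdx1 (at least 25.2-fold), Hoxa5 (8.43-fold), Egln3 (3.18-fold) and Bhlhe40 (2.51-fold), with Rarres1 lower (2.12-fold). In males 4 were higher and 3 lower of 16 (median log2 0.19), Egln3 by 2.49-fold, Hoxb5 by 2.08-fold, Hoxa5 by at least 2.07-fold and Nrip1 by 1.62-fold, with Bhlhe40 (2.25-fold), Cyp2s1 (1.79-fold) and Rarres1 (1.54-fold) lower. Egln3, Hoxa5 and Rarres1 passed 1.5-fold the same way in both genders, where 3.19% of 23967 genes were higher and 3.8% lower in both. Cdx1 and the Bhlhe40 difference in females, with the Hoxa5 bound in males, were named after their values were seen, as were the Cyp26b1 bound in males and Cyp26c1, Blvrb and Ppbp above. Cdx1 was not well above background on CF. Of 10 intestinal epithelium markers compared, 9 were also higher on MF than on CF. The part of intestinal tissue in the Cdx1 difference was not tested.

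Markers of other tissues differed between the same arrays. Intestinal epithelium markers had a summed signal, over the 75th percentile, of 19.4 on CF, 123 on MF, 18.1 on CM and 107.4 on MM, with 6 of 11 markers well above background on CF, 10 on MF, 7 on CM and 6 on MM. On MF 9 were higher than on CF of 10 compared (median log2 4.38), and on MM 2 were higher and 4 lower than on CM of 7. The median level of the markers was log2 -3.98 on CF, 1.56 on MF, -3.62 on CM and -4.38 on MM. The larger sum on MM was thus not a rise over the whole list. Cdx2, Alpi and Cdh17 were well above background on MF only, and Muc2 on none of the 4. Heart muscle markers summed to 114 on CF against 2.39 on MF, 2.79 on MM and 5.16 on CM, with 6 of 7 lower on MF than on CF (median log2 -6.78), and Myh6 and Tnni3 were not well above background on MF. Macrophage markers were higher on MF than on CF in 6 of 7 (summed signal 92.6 on CF, 219 on MF, 87.0 on CM and 110 on MM). The part of these tissues in the differences of the members and the lists was not tested. The 10 hepatocyte markers were well above background on all arrays, and the labelled tissue is liver.

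Co-regulators of the receptors were 2 higher and 1 lower of 12 in females (median log2 -0.01) and 5 higher and 1 lower of 12 in males (median log2 0.42). The coactivator Ncoa1 was 2.39-fold higher on MF and 1.53-fold higher on MM, and Med1, a Mediator subunit, was 1.87-fold higher on MF. Tbl1xr1, a subunit of the corepressor complex, was 1.73-fold lower on MF and 1.58-fold higher on MM. In males the acetyltransferase Ep300 was 1.77-fold higher, Ncoa6 was 1.56-fold and Ncoa2 was 1.55-fold higher, and Crebbp was 2.02-fold lower. Ncoa2 and the Ncoa1 difference in males were named after their values were seen.

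**Figure D4:**
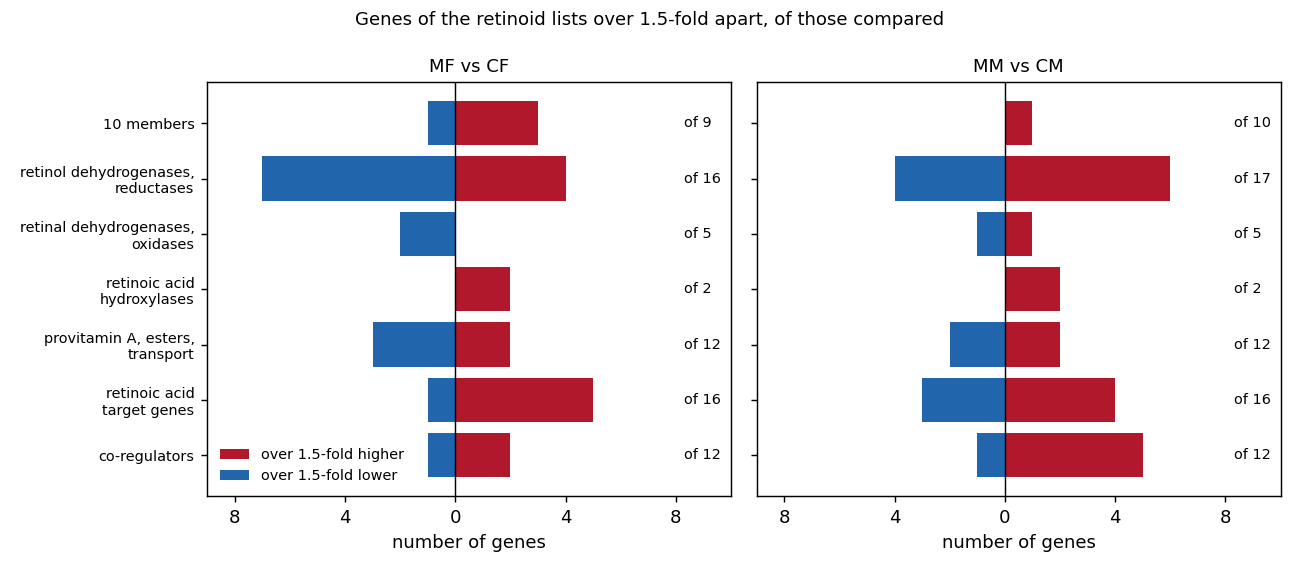
Number of genes over 1.5-fold higher (right of 0) or lower (left of 0) on the microsomic array, for the 10 members and the 6 wider lists, in females (left panel) and males (right panel). The number compared stands beside each bar, and the 2 hydroxylases compared beyond Cyp26a1 were higher in both genders.

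The scaling between arrays bears on every direction given here. Of all genes over 1.5-fold apart, 48.5% were higher on MF in females and 43.4% on MM in males. Without scaling these shares were 79.6% and 78.4%, with medians over all genes of log2 0.34 and 0.52, and with median centring they were 57.1% and 61.0%. Without scaling the male differences of Rarb (0.75), Rarg (0.67) and Rdh10 (1.02) passed 1.5-fold. The microsomic arrays lay in one column of the slide and the controls in another, so position on the slide and condition cannot be told apart. Female and male arrays lay in different rows of the slide, so row and gender cannot be told apart either.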

How the data were processed

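Total RNA of whole liver was labelled with Cy3 and hybridized by the authors to Agilent SurePrint G3 Mouse GE arrays, and 1 array per group was analysed here. The scans were quantified with Agilent Feature Extraction 10.7.3.1 (mm9 annotation). The processed signal they deposited is a linear intensity, background-subtracted and detrended by that software, with no normalization between arrays. The deposited value table equalled it in all 62976 spots. The 0/1 flags for well above background and outliers are other columns deposited in the same files.

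From these values, log2 signals were taken and each array's 75th percentile (control spots aside) was subtracted. Spots flagged as outliers on at least 1 array were dropped (1754 spots, none of a member), repeat spots were averaged by probe, and each gene was read from the probe whose mean over all arrays was highest. A probe was well above background where no fewer of its spots were than were not. Where 1 array of a pair was not, the difference was taken against a limit (log2 -6.03 on MF, -5.83 on MM, -5.48 on CF, -4.69 on CM) or the probe's own signal where higher, and is a lower bound. limma 3.58.1 (R 4.3.3) was fitted over genes well above background on all arrays, with Benjamini-Hochberg adjustment. The fit was also run on simulated data with the same noise in every gene, which does not show what it can detect in these arrays. The number of arrays limits the precision.

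All members were named, and from each list at most 3 genes higher and 3 lower per comparison with the largest measured difference over 1.5-fold, beside a few named after their values were seen. Some of the results this rule names are not reported here. The marker lists were hepatocytes, hepatic stellate cells, mesothelium, endothelium, erythroid cells, macrophages, intestinal epithelium, exocrine pancreas, heart muscle, keratinocytes, and kidney and adrenal. The members and lists were chosen with earlier results of these data known. Alternatives were median centring, quantile normalization, normexp (offset 50) with quantile normalization, no scaling, dim probes filtered on both arrays or not at all, the mean over probes, outlier spots kept, a 2-fold threshold, trends with array position and probe GC content removed, and for limma an intensity trend, no term for gender and the methods' threshold. The second brightest probe of Rara and Rarb was added after seeing the data. Promoters came from RefSeq, and probe positions and names from the array annotation.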

Additional observations from a re-analysis of the deposited data

Results flagged for a closer look

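In 6 genes the microsomic array was on opposite sides of the control in females and in males, 1 array each, and the difference between the genders was not tested. Dhrs3 was log2 1.10 in MF minus CF and -0.34 in MM minus CM, and Lrat was 0.94 and -0.074. Rarb was -0.55 in females and 0.20 in males. Aldh1a1 was -0.15 in females and 0.61 in males, and Rdh10 was -0.10 and 0.46. Rara was 0.067 in females and -0.22 in males, both under the SD of a single-spot difference (0.36 and 0.40). The male differences of Dhrs3, Lrat and Rarb and the female differences of Aldh1a1 and Rdh10 were also under it. Without scaling only Rarb kept opposite signs. With the second brightest probe neither Rara nor Rarb had opposite signs. Opposite signs were found in 50.6% of all genes compared in both genders.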

How the results depend on the processing

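No paired analysis was possible because each group has 1 array. The cause of the changes below was not tested, and Stra6 in males and Cyp26a1 in females have a value only under the alternatives named. The medians of the members kept their side of 1.5-fold in 22 of 22 alternatives, and 165 of 181 values of single members did. Many of these could not move. No spot of a member was flagged, the filters on dim probes leave measured differences as they are, and the mean over probes changes only Rara and Rarb. A value under 1.5-fold also counts as kept where its sign turns, as the female median did without scaling (log2 0.30). The male median was then log2 0.54.

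Member counts changed as follows. On MF vs CF, 1 was higher at the 2-fold threshold (Dhrs3), and lower were 0 with normexp and quantile normalization, without scaling and at 2-fold, and 2 with the second brightest probe. On MM vs CM, higher were 2 with median centring and with the second probe, 5 without scaling, 3 without the filter on dim probes and 0 at 2-fold, and 1 was lower with the mean over probes. On CM vs CF, 1 was higher with quantile normalization, with normexp, without the filter, with the mean over probes and with the second probe. Lower there were 4 with median centring, 2 with quantile normalization, the mean over probes and the second probe, 3 with normexp, and 0 with the stricter filter and at 2-fold. On MM vs MF, higher were 1 with normexp and with the stricter filter and 0 at 2-fold, and lower were 3 with normexp, 2 without scaling and 0 at 2-fold.

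Of single members, Rdh10 in males was log2 0.70 with median centring and 1.02 without scaling. With normexp and quantile normalization Rara was 0.63, Dhrs3 0.50 and Stra6 -0.32 in females, and Rarb was 0.67, Aldh1a1 0.40 and Stra6 0.31 in males. Without scaling Stra6 was -0.30 in females, and in males Rarb was 0.75, Rarg 0.67, Cyp26a1 0.59 and Stra6 0.05. Without the filter Cyp26a1 was 0.71 in females and 0.69 in males, and Stra6 was 0.86 in males. Aldh1a2 in males was -0.66 with the GC trend removed. Rarb was -0.97 in females with the second probe. In males Rarb turned to -1.05 with the mean over probes and Rara turned to 1.18 with the second probe.

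limma called 10 genes without scaling and 163 by the methods' threshold (unadjusted p under 0.01 with over 1.5-fold), 0 of them members.

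List medians that crossed 1.5-fold were these. With median centring in males, co-regulators were 0.66, hepatocytes -0.41, macrophages 0.74, intestine -0.52, pancreas -0.51 and heart -0.52, and kidney and adrenal was -0.23 in females. With quantile normalization hepatocytes were -0.017 and intestine -0.52 in males, and erythroid cells were -0.65, macrophages 0.56, and kidney and adrenal -0.46 in females. With normexp and quantile normalization hepatocytes were -0.12, intestine -0.21 and pancreas -0.47 in males, and erythroid cells were -0.61, keratinocytes 0.30, and kidney and adrenal -0.20 in females. Without scaling, in males, retinol and retinal dehydrogenases were 0.72, target genes 0.71, co-regulators 0.98, hepatocytes -0.085, endothelium 0.63, macrophages 1.06, intestine -0.19, pancreas -0.19 and heart -0.20. In females target genes were 0.78, hepatocytes 0.62, mesothelium 0.61 and pancreas 0.78, and kidney and adrenal turned to 0.079.

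List counts moved by over 1.5 times in 106 of 272 values. With median centring in MF vs CF, higher were 2 of stellate cells and of mesothelium, and lower were 0 of hepatocytes and of endothelium and 1 each of other retinal dehydrogenases, provitamin A and transport genes, erythroid cells, and kidney and adrenal. In MM vs CM, higher were 1 of endothelium and of erythroid cells, 2 of stellate cells, 3 of mesothelium and 4 of provitamin A and transport genes and of macrophages. Lower were 0 of other retinal dehydrogenases and of mesothelium, 1 of provitamin A and transport genes and of stellate cells, and 2 of hepatocytes and of pancreas. With quantile normalization in MF vs CF, higher were 0 of hepatocytes and of erythroid cells and 3 of macrophages, and lower were 1 of kidney and adrenal, 2 of target genes, 4 of hepatocytes and 5 of provitamin A and transport genes and of erythroid cells. In MM vs CM, higher were 1 of macrophages and 2 of co-regulators, hepatocytes and mesothelium, and lower were 0 of hepatocytes, 1 of provitamin A and transport genes and 2 of co-regulators. With normexp and quantile normalization in MF vs CF, higher were 0 of kidney and adrenal, 1 of hepatocytes, erythroid cells, pancreas and keratinocytes, and 2 of stellate cells. Lower were 0 of hepatocytes and of kidney and adrenal, 2 of co-regulators and of endothelium, 3 of target genes and 4 of stellate and of erythroid cells. In MM vs CM, higher were 1 of macrophages, 2 of other retinal dehydrogenases, endothelium, erythroid cells and heart, 3 of co-regulators and of mesothelium, 4 of provitamin A and transport genes and 7 of target genes. Lower were 0 of other retinal dehydrogenases, co-regulators and mesothelium, 1 of hepatocytes, macrophages and keratinocytes, and 2 of endothelium, erythroid cells, intestine and pancreas. Without scaling in MF vs CF, higher were 1 of other retinal dehydrogenases, 4 of co-regulators, stellate cells and mesothelium, 5 of provitamin A and transport genes and of keratinocytes, 6 of hepatocytes and 9 of target genes. Lower were 0 of other retinal dehydrogenases, co-regulators, hepatocytes, endothelium, erythroid cells, and kidney and adrenal, 1 of provitamin A and transport genes and of stellate cells, and 4 of retinol and retinal dehydrogenases. In MM vs CM, higher were 2 of other retinal dehydrogenases, stellate cells, erythroid cells, heart, and kidney and adrenal, 3 of mesothelium, 4 of endothelium, 5 of provitamin A and transport genes and of macrophages, and 8 of target genes and of co-regulators. Lower were 0 of other retinal dehydrogenases, provitamin A and transport genes, co-regulators, hepatocytes, stellate cells, mesothelium and keratinocytes, 1 of target genes and of pancreas, and 2 of retinol and retinal dehydrogenases and of intestine.

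Signal over background limits Cyp26a1 (well above it on 1 array), Stra6 (3 arrays) and the third Rarb probe (2 arrays).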

Other observations

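The remaining marker lists give the other cell types beside which the retinoid genes were read, as summed signal over the 75th percentile. Erythroid cells, abundant in fetal liver, summed to 556 on CF, 652 on MF, 561 on CM and 409 on MM, with 2 of 8 markers higher and 2 lower on MF than on CF and 1 lower on MM than on CM. Hepatocyte markers summed to 7608 on CF, 7878 on MF, 7763 on CM and 5128 on MM, with 6 of 10 lower on MM than on CM (median log2 -0.64). Endothelium summed to 42.2 to 56.1 and mesothelium to 4.68 to 6.54 over the 4 arrays. Exocrine pancreas summed to 2.48 to 4.86, keratinocytes to 1.96 to 6.02, and kidney and adrenal to 0.269 to 0.780. Of the kidney and adrenal markers 1 was higher and 5 were lower on MM than on CM of 7 compared (median log2 -1.53).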
